A study of Drosophila melanogaster with 19 samples.

Results

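Intergenic sites at the lowest Hia5 dose were the peaks of the Hia5 0.6 U library that met 3 conditions on the fly genome (build dm6). They overlapped no annotated gene, lay over 500 bp from every gene end, and overlapped no peak of the untreated m6A immunoprecipitation or of the DNA input. Of 8080 peaks in that list, 7605 overlapped no control peak, and 612 of these were intergenic. The other control-free peaks were 3854 within 500 bp of a gene end and 3139 inside genes farther from their ends. A further 190 intergenic peaks overlapped a control peak and were set aside. All 190 overlapped an untreated peak and 17 an input peak. The sites were thus chosen by the peak calls of 3 libraries and by position, so their presence and height in the Hia5 0.6 U list, their distance from genes and their absence from the controls are given as descriptions. The 612 sites covered 126 kb in all.

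The libraries came from S2-DRSC cells (written S2-DSRC in the labels), a Drosophila melanogaster line of embryonic, hemocyte-like cells. Extracted nuclei were exposed to an m6A methyltransferase for 20 min (37 °C), and DNA carrying m6A was pulled down with an antibody (Millipore Sigma ABE572). Besides the library that chose the sites, Hia5 was used at 2 U and 6 U (2 libraries each) and, with 1 library each, at 20, 60 and 200 U. The other enzymes had 1 library per dose: Hin1523 (2 U), EcoGI (0.6 and 2 U), Btr192IV (0.6, 2 and 6 U) and EcoGII (0.6, 2 and 6 U). An untreated immunoprecipitation and a DNA input served as the 2 controls, so 17 of 19 libraries were treated. Nothing in the labels says that the paired libraries came from separate cultures, and p-values below reflect how these libraries vary, which can be technical variation. Peak lists carry no expression values, so the labelled cell type could not be checked against its marker genes.

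An m6A methyltransferase of this kind adds a methyl group to adenines in DNA that is not shielded by nucleosomes or other proteins, so the mark records which DNA the enzyme could reach. In flies, reachable DNA away from genes is known to include enhancers, short elements that bind transcription factors and act on promoters at a distance, and insulators, which separate neighbouring regulatory domains. Developmental regulators often lie in long gene-poor stretches with several enhancers each. The lists give positions only, and no site here was assigned a function.

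The 19 lists held 82060 peaks, with 772 to 13395 in a treated list. Each peak carried a height in the authors' tag-density signal. Heights within a list were whole multiples of 1 step, and the inverse of that step served as a relative depth. The Hia5 0.6 U library had the lowest relative depth of the treated libraries, 7.28 against a median of 9.28 and a highest of 25.5. The untreated library stood at 11.3 and the input, with 32 peaks, at 0.673. A site missing from a list was therefore not called there, which is not a measurement that its DNA was unmethylated.

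The intergenic sites were slightly narrower and lower than the genic peaks of the same list. Their median width was 196.5 bp, with quartiles of 114 and 277 bp and a range of 24 to 740 bp. Gene-end peaks had a median width of 216 bp and gene-body peaks 219 bp. Median heights were 8.66 for intergenic, 9.62 for gene-end and 10.6 for gene-body peaks. The intergenic heights ran from 1.65 to 125. Of the intergenic sites, 40.7% fell in the lowest of 4 equal height classes of the list, against 20.8% of gene-end and 23.4% of gene-body peaks, while 24.8% fell in the highest.

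Sites lay closer to genes than the space open to them. Their median distance to the nearest gene was 2731 bp, with quartiles of 1167 and 7321 bp. Over all bases that lay between genes and over 500 bp from any gene, here called eligible bases, the median distance was 5164 bp. These bases were counted without regard to how well reads map there. Gaps over 50 kb held 28.8% of them and chromosome Y 6.97%. The 190 intergenic peaks that overlapped a control peak lay at a median of 12573 bp. Within 1000 bp of a gene were 20.8% of the sites, 10.01% of eligible bases and 4.21% of the control-overlapping peaks. Beyond 20000 bp the order was turned, with 8.50% of the sites, 20.3% of eligible bases and 40.0% of control-overlapping peaks. Distance and absence from the controls both belong to the choice of sites, so these shares are a description and were not tested. Short gaps between genes held more sites for their space: gaps of 1 to 5 kb held 34.9 sites per eligible Mb and gaps over 50 kb held 5.68. All 612 sites set against the eligible space came to 17.3 per Mb. That count includes 13 sites with no gene on 1 side, which lie outside the eligible bases.

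**Figure D1:**
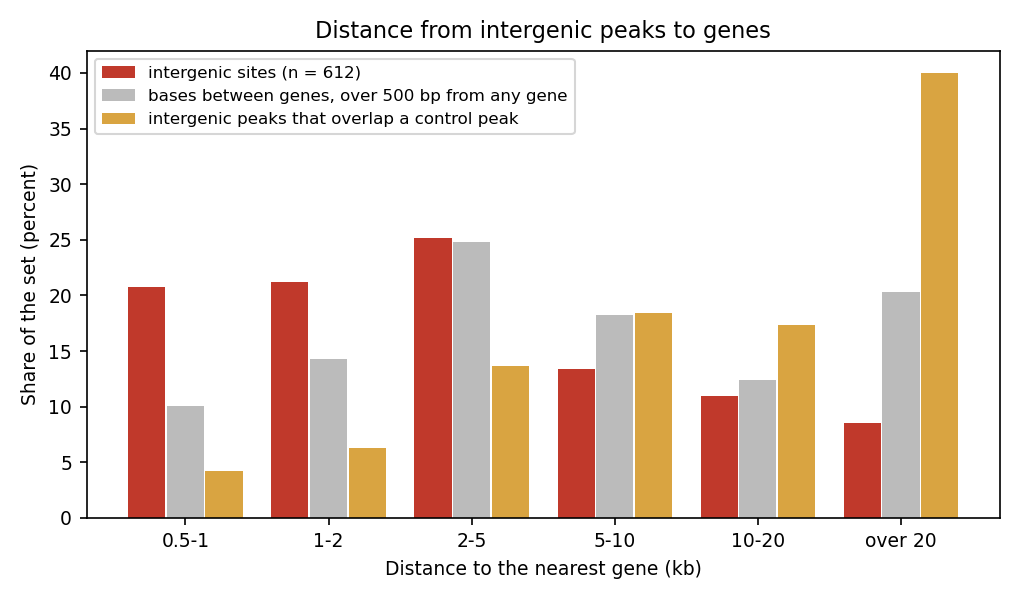
Share in percent (bars) of the 612 intergenic sites, of eligible bases and of the 190 intergenic peaks that overlap a control peak, by distance to the nearest gene in kb. The class nearest to genes holds 20.8% of the sites and 4.21% of the control-overlapping peaks, and the farthest class, over 20 kb, 8.50% and 40.0%.

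The values at the 500 bp limit were as follows. Just inside were a site at 2R 12385021, 501 bp from CG8501, and a pair at 505 bp, 1 at 3R 13187856 by CG14380 and 1 at 2L 3657458 by for, which encodes a cyclic GMP-dependent protein kinase. Just outside were peaks 500 bp from CG13989 on 2L, 498 bp from NLaz, a lipocalin gene, and 493 bp from croc, a forkhead factor gene. The 3 peaks just outside had heights of 5.77, 7.56 and 5.91 and were found in 2, 4 and 0 of the other treated libraries. The 3 just inside had heights of 6.18, 4.81 and 6.32 and were found in 7, 11 and 1. Both sides of the limit thus held low peaks, and none stood out by height.

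The chromosome arms did not hold sites in proportion to their space. Chromosome arm 3L held 162 sites, 3R 144, 2L 123, 2R 110, X 67, chromosome 4 held 4 and Y held 2. Per eligible Mb this came to 21.96 on 3R, 20.0 on 2L, 19.1 on 3L, 16.5 on 2R and 13.5 on X. Chromosome 4 gave 28.6 from 4 sites and Y 0.810 from 2. Sites with no gene on 1 side, most of them on 2R, are in these counts but lie outside the eligible bases. The X held 10.9% of the intergenic sites and 16.6% of all control-free peaks of the list. The 1 Mb windows with most sites were on 3L, with 18 in the window that starts at 0 Mb, 17 at 10 Mb and 16 at 8 Mb.

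Part of the sites lay in groups. Of the 612 sites, 196 (32.0%) lay within 2 kb of another intergenic site, in 75 clusters, of which 21 held at least 3 sites. Counting any control-free peak as a neighbour, 46.1% of the intergenic sites had one within 2 kb, against 57.9% of gene-end and 64.4% of gene-body peaks and 59.7% of all. Sites in clusters had a median height of 13.1 and were found in a median of 6 of the 16 other treated libraries. Sites alone had a median height of 6.73 and were found in 4.

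The largest cluster held 8 sites over 4578 bp at 3L 10736801 to 10741378. It sat 39924 bp from NijA, which encodes a ninjurin, a cell-surface adhesion protein, and 30547 bp from CG43245. Its heights ran from 9.62 to 34.4, and its sites were found in 2 to 12 other libraries, with a median of 5.5. EcoGII found 7, 8 and 6 of the 8 at 0.6, 2 and 6 U, whereas Hia5 at 20, 60 and 200 U found none. Over all control-free peaks these shares were 63.6%, 68.7% and 61.2% for EcoGII, and 11.6%, 2.68% and 5.29% for Hia5. The second held 7 sites at 2L 13068341 to 13074840, 8201 bp from CG9932. These were uniformly tall, with heights of 27.5 to 49.1, and each was found in 9 to 11 libraries. All 7 were found by both Hia5 2 U libraries, by EcoGII at each of its 3 doses, by Btr192IV at 0.6 U and by Hin1523. None was found by Hia5 at 60 or 200 U, by Hia5 6 U replicate 1 or by Btr192IV at 6 U. Hia5 6 U replicate 2 found 1 and Hia5 20 U found 4. Over all control-free peaks, the libraries that found all 7 had shares from 30.7% (Btr192IV 0.6 U) to 68.7% (EcoGII 2 U). Those that found none had 2.68% (Hia5 60 U) to 19.2% (Hia5 6 U replicate 1). Hia5 6 U replicate 2 had 14.9% and Hia5 20 U 11.6%.

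The third cluster held 6 sites at 3L 8696501 to 8700680, between lncRNA:CR44526 and SrpRbeta, which encodes a subunit of the signal recognition particle receptor. Its heights of 33.9 to 73.9 were the tallest of the 5 largest clusters, and its sites were found in 7 to 15 libraries. It lay 2616 bp from the nearest untreated peak. The fourth, 5 sites at 2L 12003081 to 12006680, filled much of the 5.89 kb gap between Hacd1, an enzyme of very long fatty acid synthesis, and Rh5, a photoreceptor opsin. Its heights reached 20.3 and its sites were found in 6 to 13 libraries. The fifth, 5 sites at 2L 1424724 to 1427795, lay between robo2, an axon guidance receptor gene, and CG43401. Its members ranged from 0 to 13 libraries with a median of 1, so neighbours in it differed widely in recurrence. A cluster of the same number of sites but shorter, at 3L 3384312 to 3387220 by Ids, had heights of 12.5 to 51.0 and a median of 9 libraries.

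The sites were spread over many genes. The nearest gene of any kind was protein-coding for 464 sites, a lncRNA for 130, a tRNA gene for 8 and a pseudogene for 5, over 440 genes in all. Taking the nearest protein-coding gene alone, 419 genes had at least 1 site. Of the 4892 protein-coding genes that are nearest to some eligible bases, on a grid of 50 bp, 8.52% had a site. Of the 419, 318 were nearest to exactly 1 site and 43 to 3 or more. The genes nearest to most sites were CG43245 with 10, CG9932 with 9, hry with 8, and CG14506, CG13323 and CG5290 with 6 each. Being nearest does not show that a site acts on a gene.

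Several genes that control body pattern were among the neighbours. Of 16 Hox and segmentation genes, 15 had eligible bases and 7 were the nearest coding gene to a site, with 18 sites in all. Of 18 appendage and homeodomain regulators, 17 had eligible bases and 6 had 11 sites. Of 18 zinc finger and bHLH regulators, 16 had eligible bases and 4 had 13 sites. These shares of 46.7%, 35.3% and 25% stand beside the 8.52% of all such genes. For their eligible space these were 79.1, 40.4 and 60.1 sites per Mb, against 17.2 over all protein-coding genes with all 612 sites counted. The lists were chosen with earlier results of these data known, and these densities carry no test. The gene hry counts in 2 of the lists and carries much of both: without it the Hox and segmentation list had 50.6 sites per eligible Mb and the zinc finger and bHLH list 26.8.

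The gene hry encodes a bHLH repressor that sets body segments, and it had the most sites of any gene in the lists. Its 8 sites stood 2697 to 19148 bp from it on 3L. Their heights were 15.9 and 26.1 on the left of hry, at 8667920 and 8672835. On its right they were 15.8 at 8686881, 53.6 at 8688741, 73.9 at 8691741, 60.1 at 8696501, 59.9 at 8697781 and 37.0 at 8698401. The 3 lowest were found in 4 or 5 other libraries, and the tall sites at 8688741, 8691741, 8696501 and 8697781 in 12, 14, 11 and 15. The site at 8697781 was missing only from Btr192IV at 6 U, whereas those at 8691741 and 8688741 were missing from Hia5 at both 60 U and 200 U. A noncoding gene, lncRNA:CR44526, lay nearer than hry to the 6 sites on the right.

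The wing selector gene ap, a LIM-homeodomain factor, had 5 sites at 4296 to 11405 bp, found in 8, 4, 15, 8 and 6 libraries in order of distance. Its tallest, at 2R 5735761 to 5736240, had a height of 85.1 and was found in 15 libraries, missing only from Hia5 60 U. Where found, it ranked between percentiles 95.1 and 99.6 of the lists by height. The segment polarity gene en, a homeodomain factor, had 1 site 1371 bp away at 2R 11529581 to 11529820, found in all 16. Its paralogue inv had 2 sites of heights 4.26 and 5.22, found in no other library. The Wnt ligand gene wg had 4 sites 10779 to 12079 bp away, found in 6, 0, 0 and 8 libraries. The Hox gene abd-A, the pair-rule gene ftz and the homeodomain gene hth had 1 site each, of heights 6.73, 4.12 and 5.50, found in 3, 9 and 5 libraries.

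The other appendage and zinc finger genes had fewer and lower sites. Lim1 had 2, and B-H2, Dll, dac and mirr had 1 each, with heights from 3.30 to 8.79 and 1 to 5 libraries. The nuclear receptor gene knrl, of the knirps family, had a pair of heights 4.53 and 17.9, found in 8 and 14 libraries. The snail-family gene esg had 2, found in 0 and 10. The odd-skipped family gene bowl had 1 at 520 bp, found in 3.

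Signalling and blood cell genes had between 1 and 4 sites each where they had any. Shares here are of genes with eligible bases, beside the 8.52% of all such coding genes. Among hemocyte genes 1 of 9 had a site: srp, the GATA factor required for blood cells. The site stood 1152 bp from srp at 3R 15984681 to 15985000, with a height of 31.6, and was found in 15 libraries, missing only from Hia5 200 U. Of 3 JNK and AP-1 genes only kay, which encodes Fos, had any, with 2 sites of heights 17.9 and 23.1 found in 3 and 7 libraries. Of 5 EGFR and RTK genes, 2 had sites. The gene sty, whose product restrains receptor tyrosine kinases, had 2 sites of heights 22.3 and 52.2, found in 5 and 10 libraries. The EGFR inhibitor gene kek1 had 2 found in none. Of 10 ligand genes (with Notch itself), 4 had sites: wg, upd2, upd3 and Delta had 4, 2, 1 and 1. The site of Delta, the Notch ligand gene, lay 10957 bp from it at 3R 19337174, nearer to a lncRNA gene, with a height of 4.81, and was found in 12 libraries. The sites of upd2, a JAK-STAT ligand gene, were found in 9 and 7 libraries, and that of its relative upd3 in 3.

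Hormone response genes were also among the neighbours. Of 7 ecdysone genes with eligible bases 4 (57.1%) had sites, 6 in all, against 8.52% of all such genes: Eip93F had 3 of heights 7.70 to 10.03, and the nuclear receptor genes Eip75B, Eip78C and Hr38 had 1 each. The sites of Eip78C and Hr38 were found in 11 and 10 libraries and that of Eip75B in 3. None of 14 cell adhesion and axon guidance genes with eligible bases was the nearest coding gene of a site, over 155.5 kb of eligible space, although robo2 flanked a cluster. Of 107 chemoreceptor and odorant binding genes with eligible bases, 8 (7.48%) had 1 site each, near the 8.52% of all such genes, at 12.03 sites per eligible Mb.

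Other neighbours outside the lists, picked after their values were seen, were rpr and foxo. The cell death gene rpr had 4 sites in a cluster at 3L 18399981 to 18403207, with heights of 14.2, 10.03, 21.2 and 12.8 and 9, 4, 13 and 4 libraries. The insulin pathway factor gene foxo had 5, found in 10, 3, 0, 1 and 15 libraries, of which the last, 625 bp from the gene at 3R 14056081, had a height of 27.8.

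Most sites were seen again in another library, but few in every one. Of 612 sites, 535 (87.4%) were found in at least 1 of the 16 other treated libraries, meaning that a peak there overlapped the site by at least 1 bp. The same share over all control-free peaks of the list was 87.6%. The median site was found in 5 libraries (quartiles 2 and 9), a gene-end peak in 4. A group of 66 sites (10.8%) was found in 13 to 16 libraries, against 7.46% of all control-free peaks and 5.94% of gene-end peaks. Sites found in all 16 numbered 9 (1.47%), against 0.750%. Those found in no other library numbered 77 (12.6%), against 12.4%.

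Recurrent sites were taller and wider. Sites found in 13 or more libraries had a median height of 20.8 and a median width of 280 bp, and those found in none 4.95 and 102 bp. The highest of the latter were at 2R 10428948 to 10429200 (height 13.5), 508 bp from RanBPM, at 3L 17927301 (10.03) by lncRNA:CR43174, and at 2L 7086491 (9.34), 1856 bp from Pvf2, a PDGF/VEGF-type ligand gene. Sites found in just 1 other library numbered 73 (11.9%, against 11.8% of all control-free peaks). For 54 of them (8.82% of all sites, against 7.10%) that library was EcoGII at 2 U or 6 U, the 2 longest of the other lists.

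**Figure D2:**
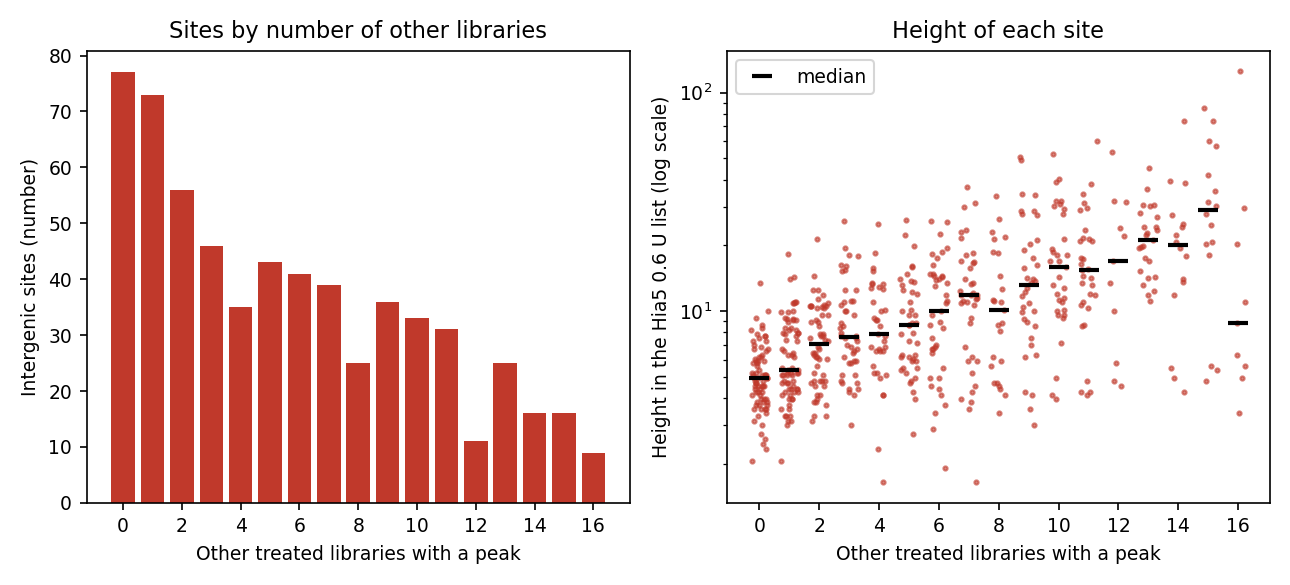
Left, the number of intergenic sites (bars) by how many of the 16 other treated libraries had a peak there. Right, the height of each site in the authors' signal at Hia5 0.6 U, on a log axis, against that number, with a point per site and a dash for the median. Sites found in 13 or more libraries have a median height of 20.8 and sites found in none 4.95.

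The 9 sites found in all 16 libraries covered a wide range of heights. The tallest of the whole set, 125, was at 3L 626821 to 627180, 1255 bp from a lncRNA gene and 20252 bp from the nearest coding gene, Reg-2. In the other lists it ranked between percentiles 92.1 and 99.8, with a median of 99.1. The en site, of height 29.5, ranked between 79.7 and 98.9, lowest in Hia5 200 U. A pair of sites of heights 20.3 and 10.99 lay beyond CG9380, the last gene of 2R, at 25268901 and 25281370. The other 5 were low in the Hia5 0.6 U list, at 3.44 to 8.79. The lowest of them, a 59 bp site at 3R 17311300 to 17311358, lay 8646 bp from beat-IIa, a gene of the beaten path family, and stood at percentile 1.55 of its own list. Its ranks in the other lists ran from percentile 6.98 to 77.2. Of the 9 sites, those at 3L 10931074, 10930241 and 626821 lay 553, 1520 and 3564 bp from an untreated peak. The rest lay 12076 bp or more away.

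The tallest sites were not always the most recurrent. Of the 10 tallest, the site 1113 bp from sty at 3L 3399561 (height 52.2) was found in 10 libraries, and that 5038 bp from Ids, a sulfatase gene, at 3L 3385121 (51.0) in 9. Both were missing from Hia5 at 20, 60 and 200 U and from Btr192IV at 6 U. The site at 2R 5745261, of height 57.2 and 8757 bp from its nearest gene, was missing only from Hia5 60 U. In the plot of presence by library, the 18 sites found most often or tallest were all found by both Hia5 2 U libraries, all 3 EcoGII libraries, Btr192IV and EcoGI at 0.6 U, and Hin1523. Hia5 60 U found 10 of them, Hia5 200 U 13, and Btr192IV 6 U 14. The 18 include the 9 sites found in all 16 libraries, so that part of every count was fixed by the choice. Over all control-free peaks, Hia5 60 U found 2.68%, Hia5 200 U 5.29% and Btr192IV 6 U 7.65%.

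**Figure D3:**
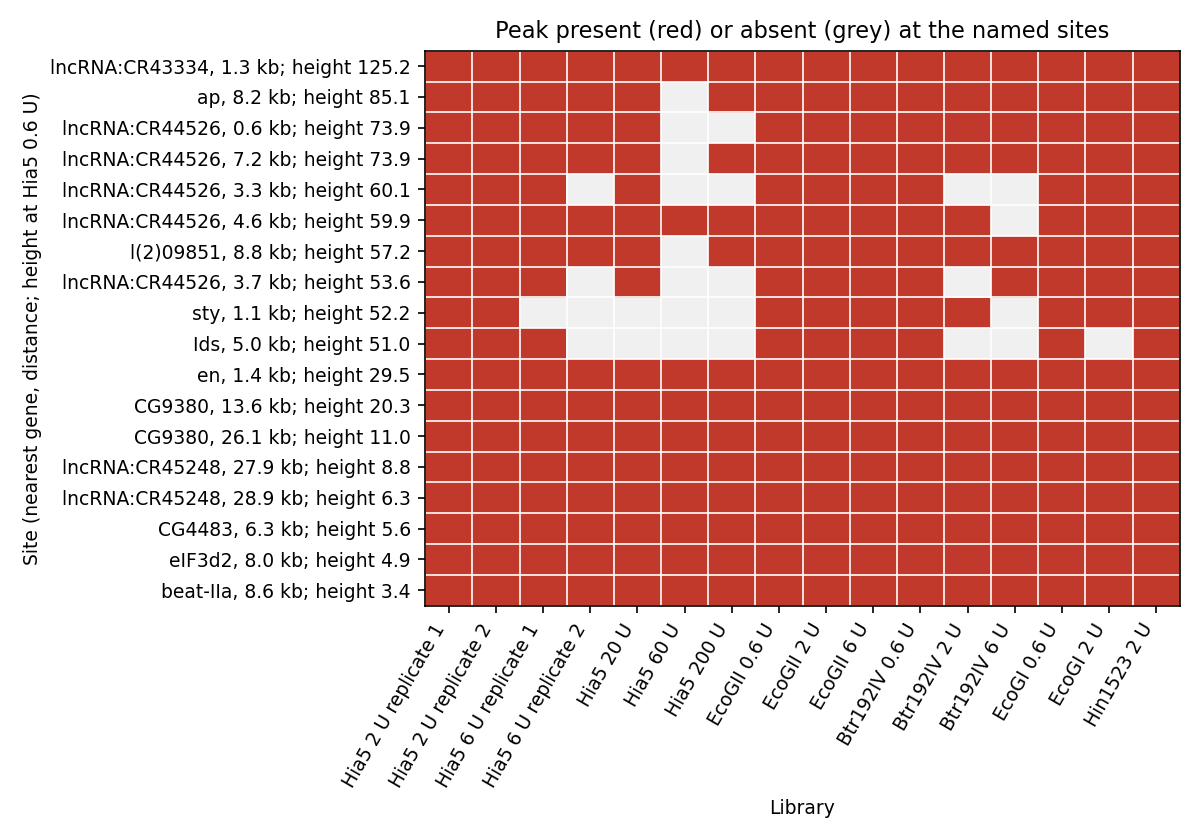
Presence (red) or absence (grey) of a peak in each of the 16 other treated libraries (columns) at 18 intergenic sites (lines, from the tallest down, with the nearest gene of any kind, its distance in kb and the height at Hia5 0.6 U), which are the 10 found most often and the 10 tallest, with shared sites drawn once. Every one of the 18 was found by the Hia5 2 U and EcoGII libraries, and 10 by Hia5 60 U. The choice brings in the 9 sites found in all 16 libraries, which fixes that part of every count.

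The share of intergenic sites found again fell with Hia5 dose. At 2 U the libraries found 291 (47.5%, 95% Wilson interval 43.6 to 51.5) and 345 (56.4%, 52.4 to 60.2) of the 612, against 49.2% and 52.9% of all control-free peaks. At 6 U they found 154 (25.2%, 21.9 to 28.7) and 125 (20.4%, 17.4 to 23.8), against 19.2% and 14.9%. The 20 U library found 124 (20.3%, 17.3 to 23.6), against 11.6%. The 60 U library found 32 (5.23%, 3.73 to 7.29), against 2.68%, and the 200 U library 70 (11.4%, 9.15 to 14.2), against 5.29%. Each share of intergenic sites was above that of all control-free peaks except in the first 2 U library, and the Hia5 lists at 6 U and above held 772 to 4054 peaks against 5680 and 6161 at 2 U. The intervals cover counting error only.

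Against log10 dose over the 7 libraries, Pearson's r was -0.85 (exact permutation p = 0.00635, adjusted 0.0127 over 2 trends) and Spearman's rho -0.95 (exact p = 0.00476, adjusted 0.00952). Without the 60 and 200 U libraries r was -0.87 over 5 libraries (exact p = 0.0667). The sites were chosen at the lowest dose of this same series, which favours nearby doses. All control-free peaks fell too, from 49.2% and 52.9% at 2 U to 2.68% at 60 U and 5.29% at 200 U. The fall is thus not particular to the intergenic sites. The libraries at 6 U found 22.8% ± 3.35 and those at 2 U 52.0% ± 6.24 (2 libraries each, SD), so that 6 U minus 2 U was -29.2 points (exact permutation p = 0.333, the smallest that 2 against 2 can give). With every list held to its 772 tallest peaks, the length of the 60 U list, this difference was -2.12 points. The Hia5 libraries at 20, 60 and 200 U all carry lower library numbers, as do the first libraries at 2 and 6 U and both controls. The Hia5 0.6 U library, which chose the sites, carries a higher number. So do the second libraries at 2 and 6 U and every library of another enzyme. If the numbers mark a batch, which is an inference, comparisons across the lower and higher numbers cannot be told apart from it. The lower numbers by themselves hold Hia5 from 2 to 200 U. The higher numbers hold every enzyme, but Hia5 only up to 6 U. The trend with dose kept its direction in the lists of equal length, with r at -0.94 (exact p = 0.00794). Among the lower numbers the shares were 47.5%, 25.2%, 20.3%, 5.23% and 11.4% at 2, 6, 20, 60 and 200 U, and among the higher ones 56.4% and 20.4% at 2 and 6 U.

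Among the other enzymes, EcoGII found most sites, 348 (56.9%, 52.9 to 60.7) at 0.6 U, 384 (62.7%, 58.8 to 66.5) at 2 U and 408 (66.7%, 62.8 to 70.3) at 6 U, against 63.6%, 68.7% and 61.2% of all control-free peaks. Btr192IV found 226 (36.9%, 33.2 to 40.8), 182 (29.7%, 26.3 to 33.5) and 78 (12.7%, 10.3 to 15.6), against 30.7%, 23.7% and 7.65%. EcoGI found 190 (31.0%, 27.5 to 34.8) at 0.6 U and 175 (28.6%, 25.2 to 32.3) at 2 U, against 27.4% and 24.3%. Hin1523 at 2 U found 325 (53.1%, 49.1 to 57.03), against 51.2%. The EcoGII shares were higher at each higher dose and the Btr192IV shares lower, with 1 library at each dose and no test. List lengths had the same order, at 6772, 7969 and 13395 peaks for EcoGII and 3692, 3098 and 1425 for Btr192IV. In lists of 772 peaks the shares were 12.1%, 12.7% and 13.1% for EcoGII and 11.9%, 10.6% and 7.52% for Btr192IV.

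**Figure D4:**
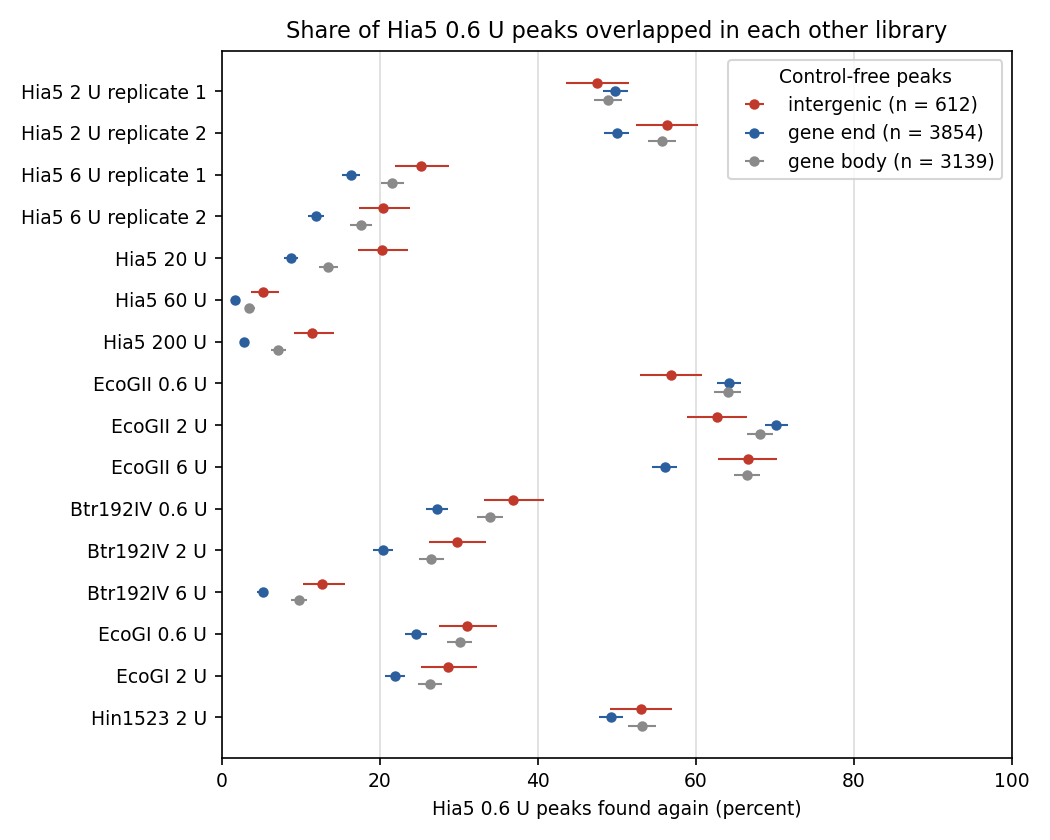
Share of peaks of the Hia5 0.6 U list found again in each of the 16 other treated libraries, in percent, for intergenic sites, gene-end peaks and gene-body peaks, with 95% Wilson intervals. The intergenic share runs from 5.23% in Hia5 60 U to 66.7% in EcoGII 6 U.

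Between enzymes, EcoGII found 62.1% ± 4.93 and Btr192IV 26.5% ± 12.4 of the sites over 0.6, 2 and 6 U (SD, n = 3 each), and the groups did not overlap. Nor did they over all control-free peaks, at 63.6%, 68.7% and 61.2% for EcoGII and 30.7%, 23.7% and 7.65% for Btr192IV. The contrast is thus not particular to the intergenic sites. For the sites, the difference of 35.6 points had an exact permutation p of 0.1, the smallest possible, and 0.2 after adjustment over 3 enzyme pairs. At 2 and 6 U, EcoGII (64.7%, n = 2) stood 27.3 points above Hia5 (37.4%, n = 4; exact p = 0.133, adjusted 0.2), and Btr192IV (21.2%) 16.1 points below it (exact p = 0.333, adjusted 0.333). The smallest p for 2 against 4 is 0.0667, so none of these could pass 0.05 after adjustment. With lists of 772 peaks the EcoGII and Btr192IV difference was 2.61 points, EcoGII minus Hia5 2.04 and Btr192IV minus Hia5 -1.80.

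At least 1 EcoGII library found 517 of the 612 (84.5%, against 84.3% of all control-free peaks) and all 3 found 249 (40.7%, against 43.9%). At least 1 other Hia5 library found 410 (67.0%, against 65.3%) and all 7 found 17 (2.78%, against 1.01%). Btr192IV found 264 at some dose (43.1%, against 35.5%) and 65 at every dose (10.6%, against 6.46%). EcoGI found 240 at some dose (39.2%, against 33.8%) and 125 at both (20.4%, against 17.9%). The EcoGII and Hia5 shares for at least 1 library are thus near those of the whole list. Of sites found in no other Hia5 library, 120 (19.6% of all sites, against 21.6%) were found in at least 1 EcoGII library and 9 (1.47%, against 2.59%) in all 3. The reverse, found by some library but by none of EcoGII, held for 18 sites (2.94%, against 3.27%). Seen from the other lists, sites of the Hia5 0.6 U list overlapped 63.6% of the control-free intergenic peaks of EcoGI 0.6 U and 61.2% of those of EcoGII 0.6 U, but 15.6% of EcoGII 6 U and 8.54% of Hia5 200 U.

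Intergenic sites were found again more often than gene-end peaks of the same list. Over the 16 libraries the intergenic share was higher by 5.29 ± 5.97 points (SD), and higher in 13 of 16 (permutation p = 0.00494, adjusted 0.00989 over 2 comparisons). The exceptions were Hia5 2 U replicate 1 and EcoGII at 0.6 and 2 U, with the lowest difference at -7.47 points. Against gene-body peaks the difference was 1.17 ± 3.51 points, higher in 12 of 16 (permutation p = 0.204, adjusted 0.204). With clustered peaks, those within 2 kb of another of their class, left out of all 3 classes, the gene-end difference was 2.91 points, higher in 12 of 16 (adjusted p = 0.296 by the same permutation test), and the gene-body difference -0.26. Among peaks above and below the list's median height taken apart, the gene-body difference was 4.98 and 3.97 points (adjusted permutation p = 3.05e-05 and 0.0036). The gap also varied with height: the mean difference from gene-end peaks was 9.63, 4.69, 7.41 and 0.66 points from the lowest to the highest of the 4 height classes, higher in 14, 14, 16 and 8 of 16 libraries.

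In the full lists the gap to gene-end peaks widened as a ratio along the Hia5 dose series. The intergenic share was 0.954 and 1.13 times the gene-end share at 2 U, 1.54 and 1.72 times at 6 U, 2.32 times at 20 U, 3.20 times at 60 U and 4.08 times at 200 U. With every list held to its 772 tallest peaks the ratios for 2 U were 2.00 and 2.23 and those for 6 U 1.81 and 2.17, so they did not widen between these doses. For 20, 60 and 200 U they were 2.55, 3.20 and 4.88. As a difference in points the gap had no such trend (r = 0.35, exact permutation p = 0.452; rho = 0.40, p = 0.379). On the log2 ratio, chosen after the data were seen, r was 0.99 (exact p = 0.00159, adjusted 0.00317) and rho 0.98, and r was 0.97 over 5 libraries without 60 and 200 U. In lists of equal length r was 0.91 (exact p = 0.0111) and rho 0.76 (exact p = 0.0556). EcoGII had ratios of 0.885, 0.894 and 1.19 from 0.6 to 6 U, and Btr192IV 1.36, 1.46 and 2.47. In lists of equal length these were 2.16, 2.26 and 2.71 for EcoGII and 2.18, 2.19 and 2.43 for Btr192IV, so the EcoGII ratios below 1 turned above it.

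**Figure D5:**
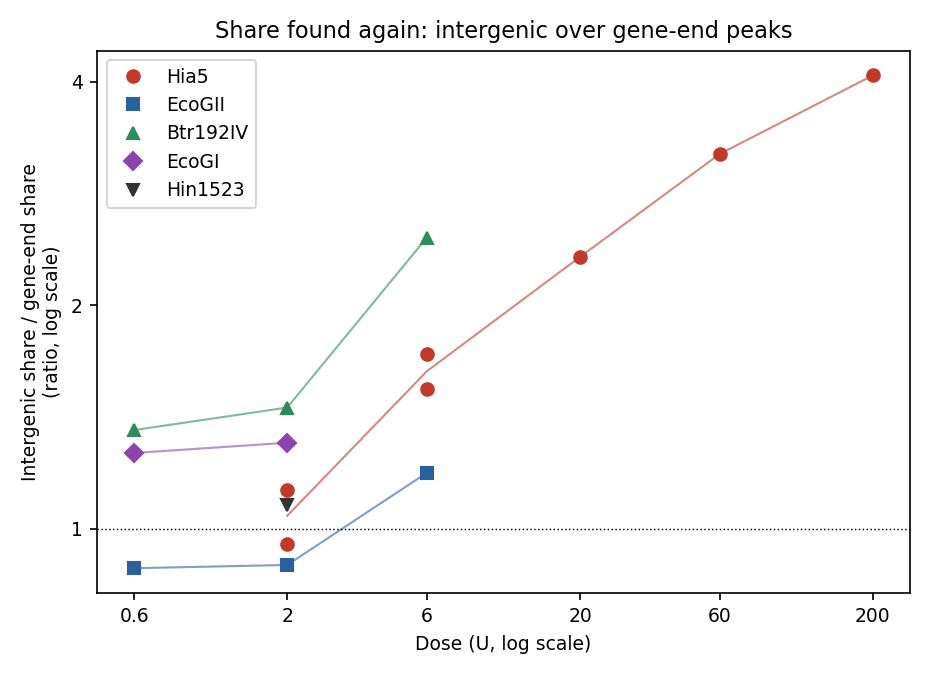
Intergenic share found again divided by the gene-end share, per library, against enzyme dose in U (both axes logarithmic), with a symbol for each enzyme. In Hia5 libraries the ratio goes from 0.954 and 1.13 at 2 U to 4.08 at 200 U. Divided by the gene-body share, which is not drawn, it goes from 0.973 and 1.01 to 1.60.

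At the highest Hia5 dose most of the sites found were low, and some were tall. Of the 70, 43 were in the lowest of the 4 height classes of the list, 3 and 5 in the middle classes and 19 in the highest. The 70 sites found at 200 U had a median height of 5.50 in the 0.6 U list, a median width of 154 bp and a median distance of 6512.5 bp from a gene. The 542 not found there had 8.93, 200 bp and 2373 bp. Over all control-free peaks of the list, those found at 200 U had a median height of 10.4 and width of 220 bp, and the others 9.89 and 215 bp. Of the 70, 24.3% lay within 5 kb of an untreated peak, against 9.04% of the others. By Hia5 dose, 264 sites (43.1%) were found at 2 or 6 U and at none of the higher doses, against 51.3% of all control-free peaks. Another 135 (22.1%, against 13.1%) were found at both and 11 (1.80%, against 0.881%) only at 20 to 200 U. The 202 found in no other Hia5 library (33.0%) were near the 34.7% of all control-free peaks.

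Sites near an untreated peak had higher counts of libraries. The 66 sites within 5 kb of an untreated peak were found in a median of 7 other libraries and the 546 farther ones in 5, with 25.8% and 9.71% found at 200 U. Their median heights were 13.4 and 8.38. Whether signal that the antibody recovers without enzyme has a part in these shares was not tested.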

How the data were processed

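Each library had its own peak list, deposited by the authors with a tag-density signal height per peak and, per the deposited lists' names, an FDR of 5%. Per the submitters' processing notes, BWA 0.7.12 and SAMtools 1.2 were used with dm6 as the fly build. The caller, its settings and subtraction of input were not given in the sources used here. Deposited signal heights were whole multiples of 1 step per list (tolerance 0.05 of a step), used as relative depth. Heights served for ranking and filtering inside 1 list.

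Genes came from a RefSeq table of the Release 6 assembly (17807 genes on 7 chromosomes, 13946 protein-coding), which gives spans without strand or exons. Distances run from edge to edge. The ligand list's Dl, a name the table gives to 2 genes, was read as Delta. Members and gene lists were chosen with earlier results of these data known. Sequence features were not analysed here.

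Sites were named by these rules: the 10 found in most libraries, the 10 tallest, the 5 farthest from a gene, the 5 largest clusters, the 5 coding genes nearest to most sites, the 3 tallest found in no other library, the 3 sites on each side of the 500 bp limit, and list genes with a site. Shares carry 95% Wilson intervals. Differences over 16 libraries were tested by permuting signs, groups and trends by exact permutation, two-sided, with Benjamini-Hochberg adjustment. Scripts (Python 3.11.15, numpy 2.4.6, pandas 2.3.3, scipy 1.17.1) were tested on simulated data. Alternatives were other margins, overlaps, upper or lower height classes, equal list lengths, clusters left out, and each library left out.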

Additional observations from a re-analysis of the deposited data

How the results depend on the processing

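Against gene-end peaks, the difference of 5.29 points kept its side of the threshold under the alternatives run except within the lower library numbers and without clustered peaks. With these left out of each class, a setting chosen after seeing the data, it was 2.91 (adjusted permutation p = 0.296). Leaving them out of the intergenic class only lowered the shares of that class, except at Hia5 200 U and Btr192IV 6 U, where they rose. The difference was then 2.59 (adjusted permutation p = 0.287, range over alternatives 3.05e-05 to 0.296). Leaving out a library gave 4.87 to 6.14. The libraries were also split by library number, an inferred batch. Within the lower numbers (all Hia5) the difference was 6.07 ± 5.47 points over 5 libraries (exact permutation p = 0.125). A permutation of signs over 5 libraries cannot pass the threshold. Within the higher numbers (all other enzymes and 2 of Hia5) it was 4.94 ± 6.40 points over 11 (exact permutation p = 0.0342). Against gene bodies, the value of 1.17 points depended on the setting. It was 1.87 with 50% overlap, 1.70 in equal lists, 4.98 among peaks above and 3.97 among peaks below the list's median height, all past the threshold. It was -0.26 and -1.54 in those 2 settings and -0.19 without sites within 5 kb of a control peak, an alternative chosen after seeing the data. Leaving out a library gave 0.788 to 1.72, of which 1.72, without EcoGII 0.6 U, passed (adjusted permutation p = 0.0331, range 0.0331 to 0.368). The dose trend of the share kept its call, with r from -0.91 to -0.81 on leaving out a library. The trend of the difference turned to -0.71 in equal lists, to -0.10 above the median height, and ran from -0.061 (without Hia5 2 U replicate 1) to 0.53 on leaving out a library, and the log2 ratio gave 0.99. Above the median height were 271 sites, and clusters at 1 kb and 5 kb held 27.3% and 40.8% of sites. Leaving out a library gave -33.6 to -24.8 for Hia5 6 U minus 2 U, 28.8 to 40.8 for EcoGII minus Btr192IV, 21.7 to 33.7 for EcoGII minus Hia5 and -24.6 to -7.64 for Btr192IV minus Hia5. With the replicate block, 6 U minus 2 U was -29.2 points (exact permutation p = 0.5, the smallest possible). Over the sites, replicate 1 minus replicate 2 at 2 U had a correlation of 0.03 with the same difference at 6 U. Sites are not replicates, so this value cannot decide whether the replicate numbers pair the libraries. The causes of these changes were not tested.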

Other observations

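Beyond the last annotated genes, 13 sites had no gene on 1 side. On 2R, past CG9380, 5 sites stood at 25268901 to 25285780, with heights of 8.52 to 23.6, found in 4 to 16 libraries, and 149827 bp or more from any untreated peak. At the other end of 2R, 4 sites beside DIP-lambda, a gene of the DIP family of neuronal adhesion proteins, stood 25588 to 295496 bp from it. Their heights were 3.71 to 4.26, and they were found in 1 to 8 libraries. The 2 found most often lay 109 and 2251 bp from an untreated peak. On 3R the farthest site from any gene, at 41781, lay 525196 bp from the myosin gene Myo81F, with a height of 4.397, and was found in 8. The site at 27649666 on 3L, which had genes on both sides, lay 171528 bp from its nearest gene, lncRNA:CR46482. Its nearest coding gene was eIF4B, a translation initiation factor gene 192864 bp away, and it was found in 6 libraries. On chromosome Y the 2 sites had heights of 3.02 and 2.06 and were found in 3 and 1 libraries.

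Near tRNA:Ile-TAT-1-2 on 3L, the site at 774521 had a height of 24.9 and was found in 15 libraries. The neighbour at 776966, of height 6.32, was found in none. The 4 sites on chromosome 4 lay nearest to Asator, myo, fuss and Cadps and were found in 2 or 3 libraries each.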
